A study of Mus musculus with 24 samples.

Results

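The miR-297, miR-466, miR-467 and miR-669 family is a large group of mouse miRNAs, most of which are cut from 1 transcript that also encodes Sfmbt2. Its members were taken as every row whose miRNA name begins with miR-297, miR-466, miR-467 or miR-669. These came to 67 names of the 1950 miRNA names in the 3 deposited tables: 6 of miR-297, 28 of miR-466, 10 of miR-467 and 23 of miR-669. By arm, 32 names are 5p, 29 are 3p and 6 carry no arm. The names had 66 rows at day 14, 61 at day 90 and 58 at day 180, and 56 of them were in all 3 tables. In 6 groups (13 names), members with at least 50 reads in all had identical counts in all 16 libraries of day 14 and day 90. Each such group was taken as 1 member and its rows were summed at day 180, which left 60 members.

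The libraries are small RNA from lung of C57BL/6 mice that were 6 to 8 weeks old when assigned to a control or an experimental group. The irradiated mice received X-rays over the whole thorax to a total of 15 Gy, with the rest of the body kept out of the field. The controls carry no label of a sham treatment, and no allele or drug is named for either group. Control and irradiated lungs were taken at day 14, day 90 and day 180, with 4 libraries in each of the 6 groups and 24 in all. No label ties a library to an animal, so p-values measure the spread between these libraries, which may be technical. A lung library holds RNA of many cell types, and fewer cells of a type and less RNA per cell cannot be told apart.

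A miRNA is cut from a hairpin in a longer transcript, and either side of the hairpin, the 5p or the 3p arm, can be kept. It binds messenger RNAs mainly through its seed, bases 2 to 8 counted from the 5′ end, and lowers their stability or translation. Sfmbt2 encodes a Polycomb protein, and the gene is imprinted and expressed from the paternal allele in extraembryonic tissue. The miRNAs in its intron arose by repeated duplication in rodents, are best known from embryonic stem cells and placenta, and have no counterpart at the human gene. Many of their 5p arms are GU-rich and many of their 3p arms are AC-rich, so that members differ by few bases.

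On the mouse build GRCm38, the GENCODE annotation placed 71 hairpins of the family inside a single intron of Sfmbt2, at chr2:10466663-10518279 on the plus strand. These hairpins cover 51617 bases from the first to the last, within an intron at chr2:10461473-10523944 of a gene at chr2:10370510-10595253, and 0 of them overlap an exon. Another 10 hairpins of these names lie elsewhere. By name, 55 of the 67 members matched only hairpins in the intron, 4 matched hairpins both there and elsewhere (both arms of miR-297a, miR-466f and miR-466f-3p) and 6 matched only hairpins elsewhere. The names miR-466a-3p and miR-466a-5p matched no hairpin by name. The cluster label therefore covers most of the family but not miR-466i, miR-466j, miR-466k, miR-467h and miR-669n.

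**Figure D1:**
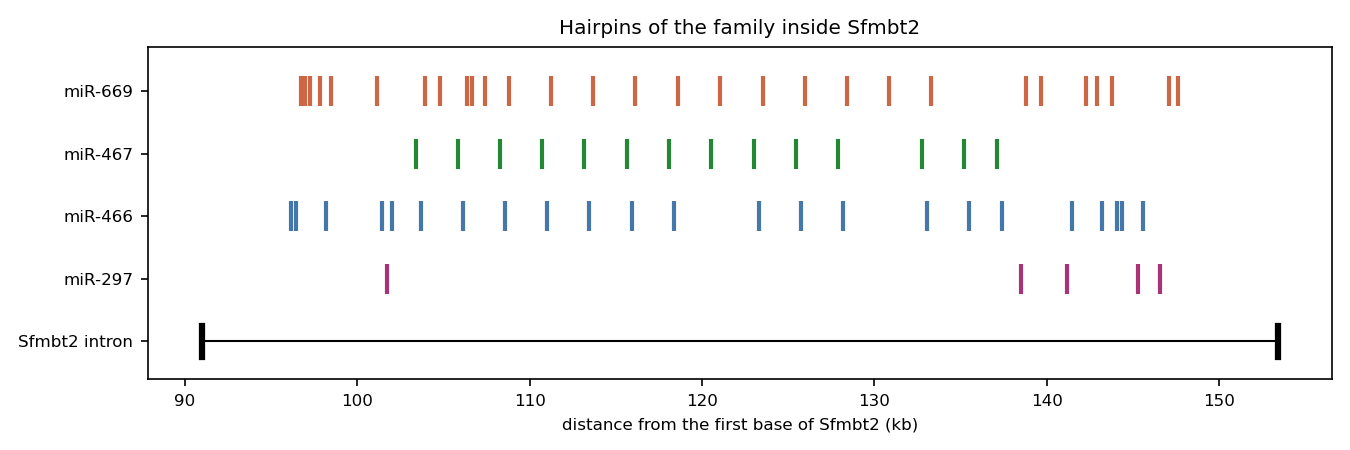
Positions of the family's hairpins inside the Sfmbt2 intron, in kb from the first base of the gene, with 1 row of ticks for each of the 4 name groups and the intron's ends as black bars. The 71 hairpins are interleaved over 51617 bases of 1 intron, with miR-466, miR-467 and miR-669 hairpins alternating along it.

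RefSeq mature sequences on GRCm38.p6 were matched for 5 of the 67 names, and these come from hairpins outside the intron. They are shown because they display the GU and AC repeats for which the family is known. Capitals mark the seed, and each is written 5′ to 3′.

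miR-466k: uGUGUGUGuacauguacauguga

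miR-466j: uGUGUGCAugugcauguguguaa

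miR-467h: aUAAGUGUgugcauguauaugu

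miR-669n: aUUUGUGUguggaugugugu

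miR-466i-3p: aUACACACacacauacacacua

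The first 4 are GU-rich. G and U make up 69.6% of miR-466k (23 bases, chr3:85467396-85467418), 73.9% of miR-466j (23 bases, chr10:60960802-60960824), 68.2% of miR-467h (22 bases, chr9:115381898-115381919) and 90.0% of miR-669n (20 bases, chr3:115979905-115979924), all on the plus strand. The AC repeat appears in miR-466i-3p (22 bases, chr13:17747552-17747573, plus strand), in which A and C make up 86.4%. No seed is shared among these 5. Outside the family, the seed of miR-467h is also that of miR-668-5p. All 5 were rare in lung: miR-467h had at most 8 reads in a library, miR-466i-3p 5, miR-466k 3, miR-466j 2 and miR-669n 1.

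Total deposited counts per library ran from 2899300 to 3301198 at day 14, from 3464742 to 3638984 at day 90 and from 2832205 to 3695133 at day 180. The lowest total belonged to irradiated library 1 of day 180, which also stood apart within the family, so the log2 fold changes named for day 180 are given with and without it, apart from that of miR-466i-5p. The family made up 0.104% to 0.256% of all miRNA counts, or 3268 to 9310 reads a library. Levels below are CPM, a library's counts scaled to a common total, after 1 scaling of the 24 libraries by the trimmed mean of M-values (TMM). The 3 tables were made separately, so a level set across days also compares tables. Markers of lung cell types were present in every group: the summed level of the endothelial miRNAs miR-126a-3p and miR-126a-5p was at least 33652 CPM, that of 4 epithelial miRNAs of the miR-200 family at least 17968 CPM, and that of 3 miRNAs of ciliated cells at least 6873 CPM.

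The family's reads came from few members. The 5p arm of miR-467a led with a mean of 709.8 CPM over the 24 libraries, followed by miR-467e-5p at 248 CPM, miR-467d-5p at 90.2 CPM, miR-297a-5p at 87.5 CPM, miR-467c-5p at 80.1 CPM and miR-669b-5p at 77.7 CPM. Next came miR-297c-5p at 57.2 CPM, miR-669l-5p at 39.9 CPM, miR-669o-5p at 30.5 CPM, miR-466p-5p at 29.6 CPM, miR-669c-5p at 25.4 CPM and miR-669f-5p at 19.4 CPM. Only 2 members had a mean of at least 100 CPM, 18 had at least 10 CPM and 34 at least 1 CPM, which leaves 26 of the 60 below 1 CPM. The number of members with at least 1 read was 37 to 49 per library. By name group, miR-467 held 52.0% to 79.8% of the family's counts, miR-669 11.6% to 26.4%, miR-297 3.99% to 14.2% and miR-466 3.11% to 8.77%. The miR-466 group thus has the most names, 28, and at most 8.77% of the reads of a library.

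**Figure D2:**
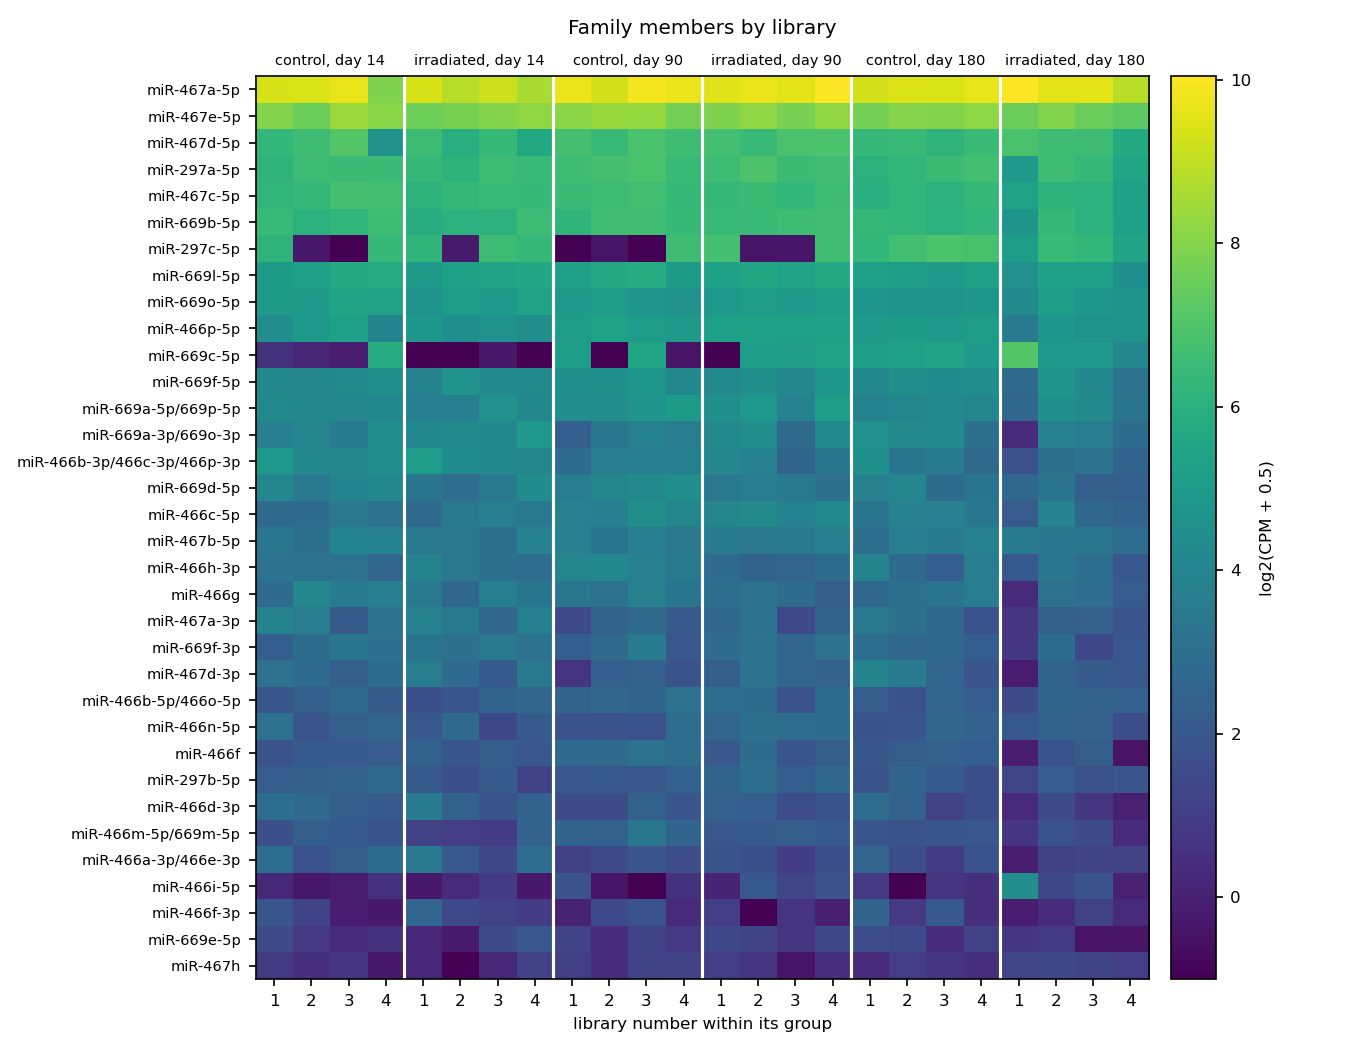
Heat map of log2(CPM + 0.5) for the 34 members with a mean of at least 1 CPM, 1 row per member in order of mean level and 1 column per library, with white lines between the 6 groups. Most rows keep 1 shade across the 24 libraries, while miR-297c-5p and miR-669c-5p alternate between their usual level and almost no reads.

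Summed over all members, control lungs stood at 1564 ± 252 CPM (SD, n = 4) at day 14, 1831 ± 175 CPM at day 90 and 1693 ± 114 CPM at day 180. Irradiated lungs stood at 1437 ± 147 CPM, 1888 ± 255 CPM and 1518 ± 347 CPM on those days. The lowest sum of all, 1008 CPM, was in irradiated library 4 of day 180 and the highest, 2241 CPM, in irradiated library 4 of day 90, so libraries of 1 treatment spanned the whole range.

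Which members could be told apart depended on the table. The identical groups at days 14 and 90 were miR-466a-3p with miR-466e-3p, miR-466b-3p with miR-466c-3p and miR-466p-3p, miR-466b-5p with miR-466o-5p, miR-466m-5p with miR-669m-5p, miR-669a-3p with miR-669o-3p, and miR-669a-5p with miR-669p-5p. At day 14, miR-669a-5p and miR-669p-5p each had 387 reads over 8 libraries, and each had 765 at day 90. The first had 189 and the second 264 at day 180. Likewise miR-466b-3p, miR-466c-3p and miR-466p-3p each had 485 reads at day 14, whereas at day 180 miR-466b-3p had 159, miR-466c-3p had 121 and miR-466p-3p had no row. The names miR-297a-3p, miR-297b-3p and miR-297c-3p also had identical counts at day 14, 4 reads each, and no row at day 90 or day 180; they were kept as 3 members. Outside the family, 9 rows in 4 groups were also identical at days 14 and 90. Identical rows were sought only among those with at least 50 reads in all over the 16 libraries of these days. The 3 tables therefore did not divide the reads of these names in 1 way, and a level of a single member of such a group is uncertain. How the counting treated other near-identical members was not given in the sources used here.

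Within miR-467, miR-467d-5p followed miR-467a-5p from library to library. The level of miR-467d-5p was 10.3% to 16.4% of that of miR-467a-5p in all 24 libraries, although miR-467a-5p itself ranged from 237 to 1056 CPM. In control lungs of day 14, miR-467a-5p was at 670.4, 683, 823 and 237 CPM in libraries 1 to 4, and miR-467d-5p at 78.2, 97.0, 135 and 25.2 CPM. Library 4 was low in both. In the same library miR-467e-5p was at 268 CPM against 187 to 331 CPM in the others, and miR-467c-5p at 103 CPM against 76.5 to 109 CPM, so these were not lower. The ratio of miR-467a-5p to miR-467e-5p was accordingly 0.884 there, while over all 24 libraries it reached 5.67 in irradiated library 1 of day 180. The level of miR-467c-5p was 23.1% to 43.5% of that of miR-467e-5p. These ratios are descriptions over 24 libraries of 3 tables, and closely related members can share reads.

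Arms were kept unevenly. Hairpin names were compared where both arms had a row and at least 1 arm had a mean of at least 1 CPM. Of 25 such names, 19 had more reads on the 5p arm and 6 on the 3p arm, with a shared row counted in full for each of its names. Among them, the 3 miR-297 names, the 4 miR-467 names and the 8 miR-669 names all had the higher 5p arm. The 6 with the higher 3p row were all among the 10 of miR-466: miR-466a, miR-466b, miR-466c, miR-466d, miR-466e and miR-466h. For miR-466c that row is the one shared with miR-466b and miR-466p. For miR-466h the 5p arm averaged 0.895 CPM and the 3p arm 8.94 CPM, and for miR-466d 0.295 and 3.99 CPM. For miR-466c the higher arm differed between days: in control lungs the 3p row was higher at day 14, at 20.9 CPM against 8.01 CPM on 5p, and the 5p arm at day 90, at 16.2 CPM against 11.2 CPM on 3p. At day 180 miR-466c-5p was at 11.8 CPM against 12.3 CPM on the shared 3p row in controls, and at 7.59 CPM against 6.19 CPM in irradiated lungs. Counted by itself on that day, miR-466c-3p had 121 reads over 8 libraries. The 5p arm had 35, 56, 52 and 33 reads in control libraries and 10, 55, 26 and 21 in irradiated ones. The 5p arm of miR-466c was thus the higher one in the table that separates these names. The 3p counts of miR-466a with miR-466e, and of miR-466b with miR-466c and miR-466p, are shared rows, as are arms of miR-466m, miR-669m, miR-669a, miR-669o and miR-669p, and the 3p arms of the miR-297 names had identical counts, so those names do not give independent comparisons. Among names with the higher 5p arm, miR-467e averaged 248 CPM on 5p and 0.433 CPM on 3p, whereas miR-669f averaged 19.4 and 6.504 CPM.

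**Figure D3:**
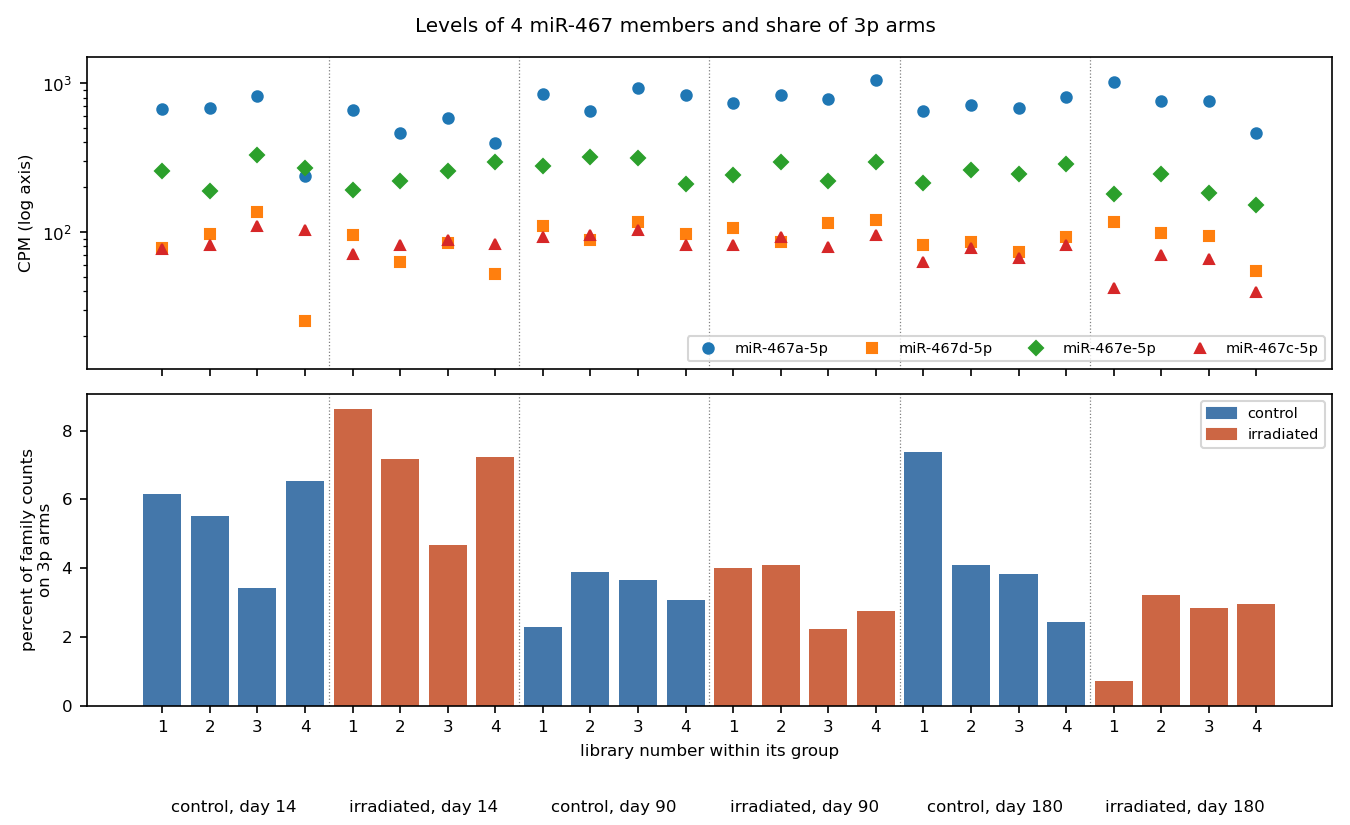
Upper panel: levels of 4 miR-467 5p arms in CPM on a log axis, 1 point per member and library. Lower panel: percent of the family's counts that fell on 3p arms, 1 bar per library, blue for control and orange for irradiated. The points of miR-467a-5p and miR-467d-5p dip together in control library 4 of day 14, and the 3p share runs from 0.715% to 8.63%.

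Over the family, 3p arms held 5.41% ± 1.39 (SD, n = 4) of counts in control and 6.92% ± 1.65 in irradiated lungs at day 14. At day 90 they held 3.23% ± 0.72 in control and 3.27% ± 0.92 in irradiated lungs, and at day 180 they held 4.43% ± 2.10 and 2.43% ± 1.16. The ranges of control and irradiated libraries overlapped on each day, and no test was made of this share. The lowest value, 0.715% or 31 reads, was in irradiated library 1 of day 180, against 2.84% to 3.23% in the other 3 libraries of its group. Control library 1 of that day was at 7.38%, against 2.42% to 4.09% in the other controls.

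A pair of members switched between their usual level and almost no reads from library to library, within groups. Read counts of miR-297c-5p in libraries 1 to 4 were 211, 1, 0 and 238 in controls of day 14 and 212, 1, 267 and 227 in irradiated lungs of that day. At day 90 they were 0, 1, 0 and 387 in controls and 395, 1, 1 and 415 in irradiated lungs. In all 8 libraries of day 180 it was present, with 305, 411, 435 and 388 reads in controls and 91, 318, 331 and 174 in irradiated lungs. Where it was present, its count was 88.8% to 137% of that of miR-297a-5p, a near relative, and in 3 libraries both had exactly the same count: 211 in control library 1 of day 14, 267 in irradiated library 3 of day 14 and 415 in irradiated library 4 of day 90. By contrast, miR-297a-5p was never below 77 reads.

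The other, miR-669c-5p, had 3, 2, 1 and 163 reads in control libraries 1 to 4 of day 14 and 0, 0, 1 and 0 in irradiated ones. At day 90 its counts were 131, 0, 164 and 1 in controls and 0, 130, 116 and 175 in irradiated lungs. At day 180 it was again present throughout, with 138, 150, 157 and 102 reads in controls and 342, 107, 125 and 67 in irradiated lungs. The libraries without miR-669c-5p coincided only in part with those without miR-297c-5p. Both had at most 3 reads in 4 libraries, control libraries 2 and 3 and irradiated library 2 of day 14 and control library 2 of day 90. At day 90, control library 1 lacked miR-297c-5p and held miR-669c-5p, and irradiated library 1 the reverse. High and low libraries of miR-297c-5p occurred within each group of day 14 and day 90. For miR-669c-5p they did so except in irradiated lungs of day 14, where all libraries were low.

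**Figure D4:**
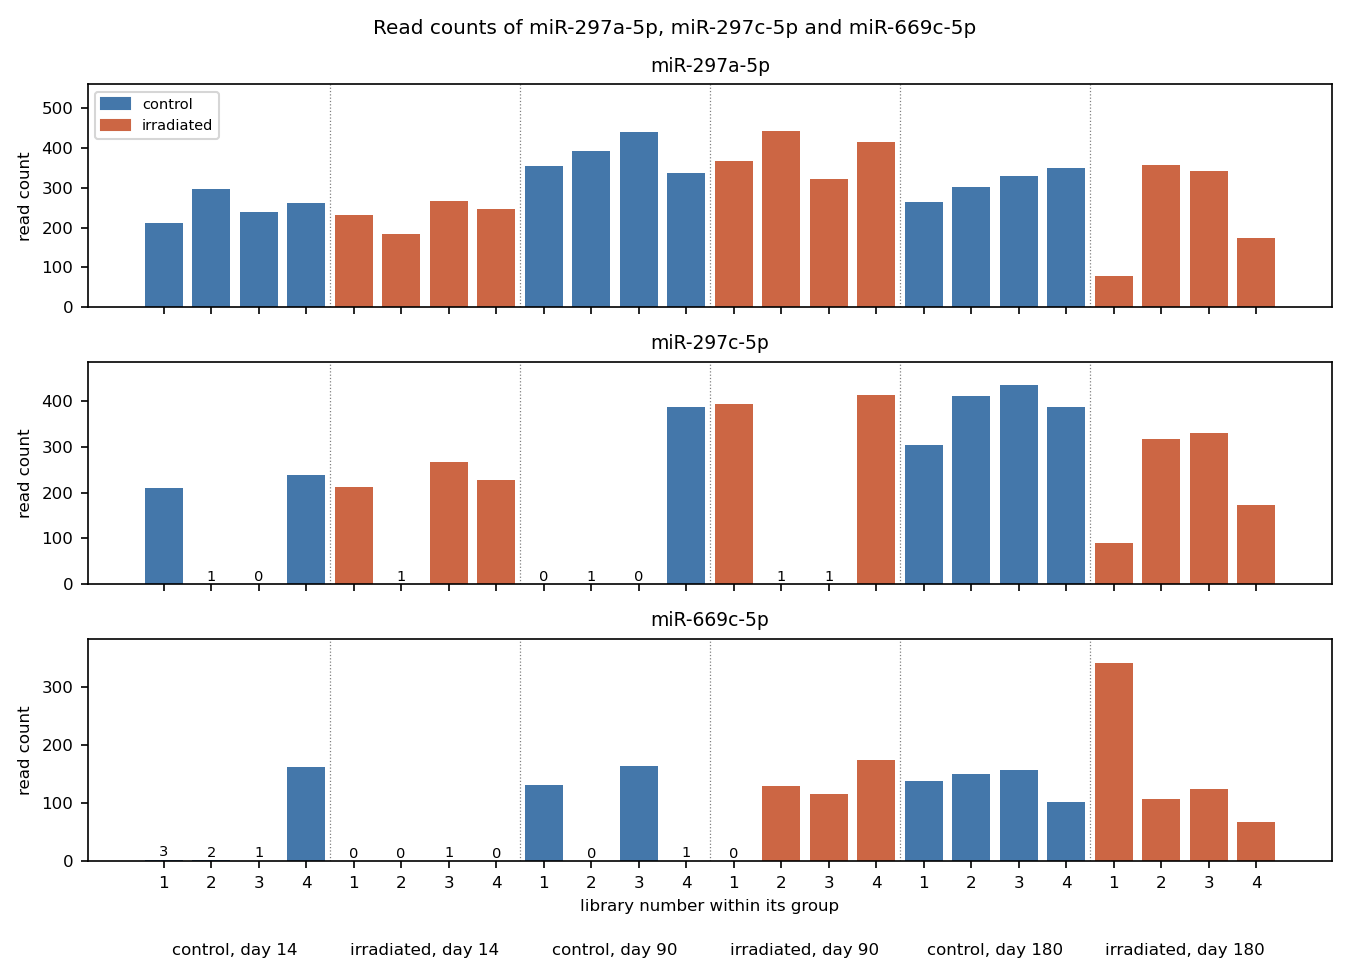
Read counts of miR-297a-5p, miR-297c-5p and miR-669c-5p in each of the 24 libraries, blue for control and orange for irradiated, with counts of 3 or fewer written above their place. The counts of miR-297a-5p run from 77 to 444 reads, whereas the others drop to 0 to 3 reads in libraries of day 14 and day 90 of both treatments and in none of day 180.

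Such switching was defined, after these values were seen, as a count of at most 3 and a count of at least 100 within 1 group. It occurred in 2 of the 13 members that reached 100 reads in a library, or 15.4%, beside 9 of all 385 miRNAs that did, or 2.34%. Among the 9 were also miR-208a-3p, which the series title names, and miR-532-3p. The part of read assignment in these values was not tested. At day 14 and day 90 the fold changes of both members rest on which libraries held them.

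At day 14, no member passed the test between irradiated and control lungs. Of the 59 members with a row, 28 passed the filter on low counts that was applied to the whole table, and 0 of these had an adjusted p under 0.05 in edgeR's quasi-likelihood test, beside 0% of the 493 miRNAs tested. DESeq2 and limma-voom also called 0 members. At an unadjusted p under 0.05 there were 0 of 28 members, beside 5.48% of all. The members' median log2 fold change was -0.07 and that of all miRNAs tested 0.02, with 12 members above 0 and 16 below. The most abundant member, miR-467a-5p, was at 603 ± 254 CPM (SD, n = 4) in controls and 528 ± 120 CPM in irradiated lungs.

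The only member of day 14 whose groups did not overlap was miR-297b-5p, beside 1.22% of all miRNAs in that direction and 2.03% in either. It was at 4.08, 4.51, 5.03 and 6.30 CPM in control libraries and at 3.82, 2.64, 3.92 and 1.78 CPM in irradiated ones, from 5 to 18 reads a library. Its log2 fold change was -0.68 ± 0.32 (SE) with an adjusted p of 0.878 in edgeR. The largest rise in value was that of miR-297c-5p, at 0.71 ± 1.54, which follows from the libraries that lacked it and ran from 0.28 to 1.39 when single libraries were left out. Next came miR-669a-3p/miR-669o-3p, at 15.2 ± 4.01 CPM in control libraries and 20.3 ± 5.88 CPM in irradiated lungs, a log2 fold change of 0.42 ± 0.26 with an adjusted p of 0.909 in edgeR, and 0.23 without irradiated library 4. All 8 tested 3p members were above 0, with a median of 0.25, and 15 of the 18 tested 5p members were below it, with a median of -0.14. None of these passed the test.

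At day 90, 29 of 54 members passed the filter and 0 were called by edgeR, beside 0.363% of the 551 miRNAs tested (2 miRNAs). DESeq2 called 1 member, miR-466h-3p, and limma-voom 0. The shares of all miRNAs that these 2 tools called are not given here. At an unadjusted p under 0.05 there were 5 members, 1 higher and 4 lower, beside 12% of all miRNAs tested. The members' median log2 fold change was -0.00057 and that of all miRNAs -0.04, with 14 members above 0 and 15 below. Levels of the abundant members lay close together: miR-467a-5p was at 812 ± 117 CPM in control libraries and 851 ± 143 CPM in irradiated lungs, and miR-297a-5p at 103 ± 14.7 and 103 ± 13.7 CPM.

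The member with the smallest p was miR-466h-3p, a 3p arm of miR-466. It was at 16.1, 17.4, 13.6 and 10.4 CPM in control libraries 1 to 4 of day 90 and at 6.66, 5.24, 5.62 and 6.98 CPM in irradiated ones, or 41 to 63 against 19 to 29 reads. Each irradiated library was below each control. The log2 fold change was -1.24 ± 0.24 (SE), 2.36-fold lower, with an adjusted p of 0.0803 in edgeR and 0.00311 in DESeq2. Over the alternatives the adjusted p ran from 0.00311 to 0.331, and without control library 4 of day 90 it was 0.0228 in edgeR, so its call depends on the tool and on 1 library. In the exact two-sided permutation test its p was 0.0286, the smallest that 4 against 4 libraries can give (2 of 70 splits). The same member did not have lower values at day 14, where it was at 7.74 ± 1.45 CPM in control libraries and 9.93 ± 3.54 CPM in irradiated lungs. At day 180 its groups overlapped, at 9.51 ± 4.93 and 5.99 ± 2.94 CPM.

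Of the members tested at day 90, 3 had groups that did not overlap, all with irradiated libraries below all controls, beside 2.36% of all miRNAs in that direction and 6.9% in either. Besides miR-466h-3p these were miR-669d-5p and miR-466m-5p/miR-669m-5p. The first was at 12.3, 15.7, 19.3 and 21.8 CPM in control libraries and 10.1, 11.9, 10.7 and 7.94 CPM in irradiated lungs, a log2 fold change of -0.79 ± 0.25 with an adjusted p of 0.234 in edgeR. The other was at 5.19, 4.97, 9.50 and 5.33 CPM in control libraries and 3.47, 3.86, 4.22 and 3.85 CPM in irradiated lungs, at -0.72 ± 0.30 with an adjusted p of 0.361, and -0.42 without control library 3. On the other side, miR-466n-5p had a log2 fold change of 0.75 ± 0.33 (adjusted p 0.403) and miR-467d-3p one of 0.79 ± 0.43 (adjusted p 0.516), and their groups overlapped. Without control library 4 the first was 1.15, and without control library 1 the other was 0.52. Values near this size were also seen for miR-466f, at -0.64 ± 0.28 with an adjusted p of 0.403. The hepatocyte marker miR-122-5p was higher in all irradiated libraries of day 90 (575 to 950.0 CPM) than in controls (144 to 441 CPM), and its part in these values was not tested.

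At day 180, 28 of 52 members passed the filter and 0 were called by edgeR, DESeq2 or limma-voom, beside 0% of the 553 miRNAs tested. Yet 23 of the 28 members had log2 fold changes below 0 and 5 above, while 41.0% of all miRNAs tested were below 0. The members' median was -0.46 and that of all miRNAs 0.12. At an unadjusted p under 0.05 there were 2 members, both lower, beside 17.7% of all miRNAs. This count was 1, 6, 2 and 0 members without irradiated library 1, 2, 3 and 4 in turn. Without irradiated library 1 the members' median was -0.37 beside 0.0024 for all miRNAs, with 25 of 28 below 0. Without library 4, whose summed level was lowest, it was -0.33 beside 0.09. Most members share a transcript and some share reads, so their directions are not independent of each other.

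The 2 members with an unadjusted p under 0.05 at day 180 were miR-669d-5p and miR-297c-5p. The first was at 13.4, 16.3, 6.94 and 9.42 CPM in control libraries 1 to 4 and at 5.98, 8.94, 4.52 and 4.53 CPM in irradiated ones, with a log2 fold change of -0.92 ± 0.37 and an adjusted p of 0.255. Without irradiated library 1 it was -0.93 ± 0.39. Its level was thus lower in value at both day 90 and day 180. It was also lower in value at day 14, with overlap and a log2 fold change of -0.33 ± 0.33. The second was at 78.3, 104, 121 and 114 CPM in control libraries and 36.3, 86.2, 78.8 and 43.8 CPM in irradiated lungs, at -0.75 ± 0.33 with an adjusted p of 0.274. Irradiated libraries 1 and 4 were the low ones, and without library 1 the value was -0.57 ± 0.27, with an unadjusted p of 0.0639. Both adjusted p-values are from edgeR.

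The same libraries 1 and 4 were low in other 5p members of day 180. Irradiated libraries 1 to 4 held miR-297a-5p at 30.7, 97.0, 81.4 and 44.1 CPM against 68.1 to 103 CPM in controls, and miR-669b-5p at 25.5, 81.8, 65.7 and 37.3 CPM against 66.9 to 80.4 CPM. They held miR-467c-5p at 41.9, 70.2, 66.0 and 39.5 CPM against 62.9 to 82.1 CPM. In each of these, libraries 2 and 3 lay within or next to the control range. In miR-467a-5p the order was another one: irradiated libraries stood at 1026, 761, 764 and 465.8 CPM against 652, 709, 676 and 806 CPM in controls, so library 1 was highest and library 4 lowest. Its log2 fold change was 0.10 ± 0.26, and -0.09 without irradiated library 1.

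Of the members tested at day 180, 2 had groups that did not overlap, both lower in irradiated lungs, beside 6.69% of all miRNAs in that direction and 11.8% in either. The level of miR-466p-5p was 30.3, 31.5, 31.1 and 34.4 CPM in control libraries and 11.6, 27.6, 24.1 and 24.4 CPM in irradiated lungs, a log2 fold change of -0.51 ± 0.31 with an adjusted p of 0.411 in edgeR. Without irradiated library 1 this value was -0.31 ± 0.19. The row of miR-466m-5p/miR-669m-5p was at 3.34, 3.05, 3.33 and 3.53 CPM in control libraries and 1.196, 2.98, 2.38 and 0.755 CPM in irradiated lungs, from 3 to 13 reads. Its log2 fold change was -0.81 ± 0.44 with an adjusted p of 0.363, and -0.68 ± 0.43 without irradiated library 1. This row had 12 to 13 reads in controls and 3 to 11 in irradiated lungs, so it passed the filter on low counts through its controls. Its lack of overlap at day 180 is not independent of that filter. The same row and miR-669d-5p also had the lower irradiated values at day 90, without overlap there.

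At day 180 the median of the 3p members was below that of the 5p members, a difference that was not tested. All 6 tested 3p members were below 0, with a median of -0.94, and 15 of the 20 tested 5p members were, with a median of -0.34. Without irradiated library 1, in which 3p reads were fewest, the 3p median was -0.65 and all 6 remained below 0. Control library 1 of day 180 held the most 3p reads, 453 or 7.38% of its family counts. The other controls of that day were at 2.42% to 4.09%. A 3p median without this control library is not given here. The lowest was miR-467d-3p, at 14.9, 11.2, 5.55 and 3.24 CPM in control libraries and 0.399, 5.42, 3.81 and 3.53 CPM in irradiated lungs, with a log2 fold change of -1.34 ± 0.63 and an adjusted p of 0.297 in edgeR. Without irradiated library 1 it was -1.02 ± 0.50, and it ran from -1.66 to -0.97 when single libraries of either group were left out. Control libraries of day 180 also spread widely in this arm, from 11 to 58 reads. Low levels were also measured for miR-466f, the member without an arm in its name, at 3.34 to 4.72 CPM in control libraries and 0.399, 2.98, 4.29 and 0.252 CPM in irradiated lungs, a log2 fold change of -1.001 ± 0.66 with an adjusted p of 0.447. That value was -0.72 ± 0.59 without irradiated library 1, -1.71 without library 3 and -0.62 without library 4.

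Irradiated library 1 of day 180 was high in a few members. It held miR-669c-5p at 136 CPM against 16.9 to 29.8 CPM in the other 3 irradiated libraries and 30.0 to 43.6 CPM in controls, and miR-466i-5p at 54 reads against 0 to 13 in the other 7 libraries of that day. The log2 fold change of miR-669c-5p was 0.52 ± 0.58 with that library and -0.53 ± 0.26 without it. With no filter on low counts, miR-466i-5p was the 1 member called at day 180 (log2 fold change 2.88, adjusted p 0.00803 in edgeR). The share of all miRNAs called with no filter is not given here. The GU-repeat miRNA miR-574-5p, which lies outside the family, was at 3055 CPM in that library against 427 to 635 CPM in the other irradiated and 331 to 477 CPM in the control libraries of day 180. In its group at day 180 the miRNAs of neural cells, miR-124-3p and miR-9-5p, were summed at 48.1 to 145 CPM against 28.0 to 46.5 CPM in controls, and those of stratified epithelium, miR-205-5p and miR-203-3p, at 547 to 763 CPM against 780 to 849 CPM; their part in the family's values was not tested. The other 10 marker lists overlapped between the groups of that day.

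**Figure D5:**
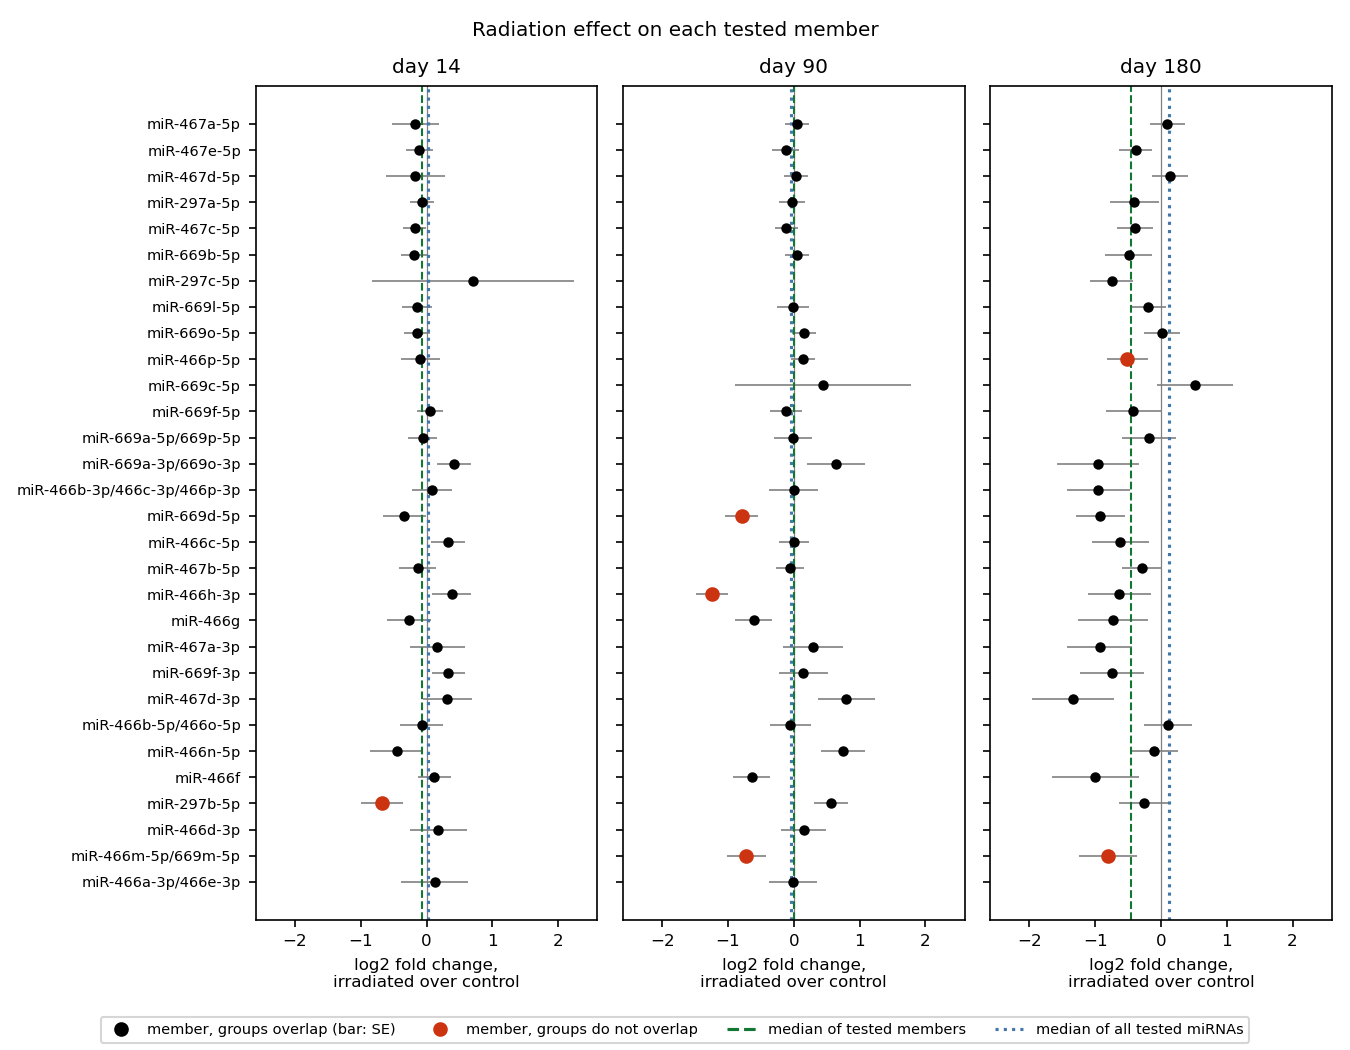
Log2 fold change of irradiated over control lungs with its SE for each tested member at day 14, 90 and 180, 1 row per member in order of mean level, with members whose groups do not overlap in red. The dashed green line is the median of the tested members and the dotted blue line that of all miRNAs tested: they lie at -0.07 and 0.02 at day 14, and at -0.46 and 0.12 at day 180.

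Whether the effect of radiation differed between days was tested in 1 fit over the 24 libraries. It covered 618 miRNAs, 32 of them members, that were present in all 3 tables and passed the filter on low counts. No member was called for any of the 3 pairs of days by edgeR, DESeq2 or limma-voom, beside 0% of all miRNAs for each pair in edgeR. At an unadjusted p under 0.05 there were 4 members for each pair, beside 4.53% of all for day 90 against day 14, 11.3% for day 180 against day 14 and 14.7% for day 180 against day 90. Between day 14 and day 90 the effect on miR-466h-3p moved by -1.58 ± 0.51 on the log2 scale and that on miR-297b-5p by 1.29 ± 0.42, each with an adjusted p of 0.375. Between day 90 and day 180 the effect on miR-467d-3p moved by -2.19 ± 0.74 with an adjusted p of 0.267, and that on miR-669a-3p/miR-669o-3p by -1.65 ± 0.71 with an adjusted p of 0.286. Without irradiated library 1 of day 180 these were -1.82 ± 0.66 and -1.25 ± 0.57. Without control library 1 of that day they were -1.77 ± 0.74 and -1.44 ± 0.73. The value for miR-669c-5p between day 14 and day 90, 7.33 ± 2.72, rests on the libraries that lacked it and was 2.89 ± 2.96 without control library 4 of day 14.

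In unirradiated lungs the family's levels were compared between days, where the day and the separately made table cannot be told apart. Between day 14 and day 90, 2 of 31 members rose, beside 3.41% of 558 miRNAs called in either direction (19 miRNAs, 6 higher and 13 lower). These were miR-466f, at 3.06, 3.87, 3.87 and 4.20 CPM at day 14 and 6.29, 6.62, 8.14 and 7.11 CPM at day 90, and miR-466c-5p, at 6.46, 6.77, 10.1 and 8.76 CPM and then 13.7, 13.2, 21.7 and 16.2 CPM. The days did not overlap in either. Their log2 differences were 0.91 ± 0.21 with an adjusted p of 0.0344 and 1.02 ± 0.25 with an adjusted p of 0.0484 in edgeR. Both calls were lost when any of 11 of the 12 control libraries was left out, and DESeq2 called 1 of them, miR-466c-5p, and limma-voom 0. The share of all miRNAs that DESeq2 called there is not given here. Between these days the summed levels of erythroid, endothelial and epithelial markers were lower at day 90 without overlap, and their part in the difference was not tested.

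From day 14 to day 180, 0 of 31 members were called in control lungs by edgeR, DESeq2 or limma-voom, beside 8.96% of 558 miRNAs (50 miRNAs) in edgeR. At an unadjusted p under 0.05 there were 2 members, beside 25.4% of all miRNAs: miR-466c-5p at a log2 difference of 0.58 ± 0.25 and miR-669o-5p at -0.44 ± 0.17. From day 90 to day 180 edgeR called 0 members and 0% of all miRNAs, with 4 members at an unadjusted p under 0.05, beside 17.6% of all. DESeq2 called 1 member there, miR-669a-5p/miR-669p-5p, with a log2 difference of -0.62, a row that holds identical counts in 1 table and a sum in the other. Its share of calls among all miRNAs of that comparison is not given here. In that comparison the log2 difference of miR-466f was -0.74 ± 0.20 with an adjusted p of 0.104 in edgeR.

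Other miRNAs with the same reputation for embryonic stem cells and placenta were almost absent. The 13 names of miR-290 to miR-295 reached at most 18 reads in a library and the 4 names of miR-302 at most 12, and none passed the filter at any day. The family itself, by contrast, had at least 677 reads of its leading member in every library. The GU-repeat miRNA miR-574-5p was of the order of the leading members, at 341 ± 95.6 CPM in control libraries and 405 ± 160.3 CPM in irradiated lungs of day 14. Its log2 fold change was 0.25 ± 0.29 at day 14, 0.23 ± 0.30 at day 90 and 1.61 ± 0.60 at day 180, with edgeR adjusted p-values of 0.912, 0.840 and 0.255. The value of day 180 was 0.49 ± 0.21 without irradiated library 1.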

How the data were processed

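Small RNA of 24 lung libraries was extracted with Trizol, cut from a gel, ligated to adaptors and amplified by PCR, per the labels' protocols. The authors deposited a count of reads for each mature miRNA and library, not normalised, per the file headers, in 1 table per day. The deposited RPM values, the same counts scaled to a common total, were not used. Per the submitters' processing notes, Bowtie2 and GRCm38.p6 were involved, at steps that are left unnamed. Whether molecular identifiers were used, and how reads that match several miRNAs were counted, was not given in the sources used here.

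Each day was tested alone on its whole table with edgeR 4.0.16 (R 4.3.3): filterByExpr, TMM scaling, quasi-likelihood test, Benjamini-Hochberg adjustment over all miRNAs tested and a threshold of 0.05. Differences between days came from 1 fit of the 24 libraries, and control lungs from 1 fit of the 12 control libraries, both on miRNAs in all 3 tables. The script was tested on simulated data. Alternatives were DESeq2 1.42.0, limma-voom (limma 3.58.1), other scaling and filters, rows as deposited, a replicate block and leaving out each library. Exact permutation tests were two-sided. Hairpins came from GENCODE on GRCm38 and mature sequences from RefSeq.

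The numbers 1 to 4 in the labels are shared by control and irradiated libraries. Deviations from the group means of same-numbered libraries had correlations of 0.404, 0.170, 0.465 and 0.411 at day 14. Irradiated library 2 of that day correlated more with a control of another number. The numbers may thus pair libraries at day 14, from the data and not from the labels. The tests reported for day 14 did not use this pairing, which entered only as the replicate block among the alternatives.

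The members and lists were chosen with earlier results of these data known. Members were named with values if they passed a test, were among the 12 most abundant, had groups that did not overlap (up to 6 a day), were among the 2 highest or 2 lowest fold changes of a day, or shared counts. Others are named where a paragraph describes irradiated library 1 of day 180, the arms or the printed sequences.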

Additional observations from a re-analysis of the deposited data

Results flagged for a closer look

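Within each group of 4 libraries, the highest or lowest library was compared with the others by Dixon's test, over 168 group values of the named members and of family sums and shares. Chance flags about 1 in 20 such groups, and 13 values were flagged.

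Several belong to the switching members. The level of miR-297c-5p was 98.2 CPM in control library 4 of day 90 against 0 to 0.276 CPM in the other 3. That of miR-669c-5p was 57.1 CPM in control library 4 of day 14 against 0.387 to 1.02 CPM, 0.356 CPM (1 read) in irradiated library 3 of day 14 against 0 in the others, and 136 CPM in irradiated library 1 of day 180 against 16.9 to 29.8 CPM.

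Control library 4 of day 90 was also high in miR-297b-5p, at 4.82 CPM against 3.53 to 3.59 CPM, and in miR-466n-5p, at 7.11 CPM against 2.99 to 3.03 CPM. Control library 1 of that day was low in miR-466b-3p/miR-466c-3p/miR-466p-3p, at 6.83 CPM against 12.4 to 12.9 CPM, and control library 3 was high in miR-466m-5p/miR-669m-5p, at 9.50 CPM against 4.97 to 5.33 CPM. Irradiated library 3 of day 90 was low in miR-466b-5p/miR-466o-5p, at 3.09 CPM against 6.90 to 7.20 CPM.

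Irradiated library 4 of day 14 was high in miR-466m-5p/miR-669m-5p, at 4.98 CPM against 1.42 to 1.74 CPM, and in miR-669a-3p/miR-669o-3p, at 29.1 CPM against 17.1 to 17.8 CPM. Control library 4 of day 14 held 18.5% of the family's counts in miR-467a-5p against 41.9% to 45.8%. In irradiated library 1 of day 180, 0.715% of the family's counts fell on 3p arms against 2.84% to 3.23%.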

How the results depend on the processing

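In irradiated against control lungs, the count of 0 members called was 1 with no filter at day 14 (miR-669c-5p, adjusted p 0.0228 in edgeR), 1 in DESeq2 and 0 to 1 without single libraries at day 90 (miR-466h-3p), and 1 with no filter at day 180 (miR-466i-5p). For the effect of day 180 against day 14 it was 0 to 1 without single libraries (miR-466c-5p without irradiated library 2 of day 180, adjusted p 0.0468 in edgeR). In control lungs of day 90 against day 14, the 2 calls became 1 in DESeq2, 1 with RLE size factors, 1 with a mean of at least 10 CPM, 1 with the replicate block, 0 in limma-voom, 0 with no filter and 0 to 2 without single libraries; of day 180 against day 90, DESeq2 called 1. The other counts did not differ, and the replicate block changed no other call, at day 14 included. The shares of all miRNAs called under these alternatives are not given here. The correlations of same-numbered libraries were -0.22 to 0.36 at day 90 and -0.38 to -0.14 at day 180. Irradiated library 2 of day 90 correlated most with the control of its own number. So few libraries cannot show whether the numbers pair libraries on these days, and the labels do not say. The members' medians moved by less than the SD between libraries of the members' mean log2 level (0.17, 0.23 and 0.38), with leave-one-out ranges of -0.12 to 0.0097, -0.04 to 0.15 and -0.74 to -0.33 at day 14, 90 and 180, and -0.75 with no filter at day 180. Without single libraries, log2 fold changes near 0 turned sign: miR-467a-5p ran from -0.44 (without control library 4) to 0.0055 (without control library 3) at day 14, from -0.080 (without irradiated library 4) to 0.14 at day 90, with -0.04 without control library 2, and from -0.085 (without irradiated library 1) to 0.28 at day 180. On that day miR-467d-5p ran from -0.0057 to 0.32 and miR-669c-5p from -0.53 to 0.85, both lowest without irradiated library 1. The cause was not tested. Of 60 members, 26 averaged under 1 CPM, where single reads decide a value.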
